A study of Mus musculus with 6 samples.

Results

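The genes described here are 10 that make, hold, receive or pass on the TGF-beta signal: the ligand genes Tgfb1, Tgfb2 and Tgfb3, the latent binding protein genes Ltbp1 and Ltbp3, the receptor genes Tgfbr1 and Tgfbr2, the signalling genes Smad3 and Smad7, and the target gene Tgfbi. They were chosen by name for these roles, but with earlier results of these data known. All 10 of them were found among the 19938 genes measured. Each had 1 probe set, which is the group of short probes that an Affymetrix array carries for a gene. Expression was measured in F4/80+ cells taken from tumours that had been implanted in mice. In the wild type group the host mouse was wild type, and in the St2-/- group the host lacked ST2, the receptor of the cytokine IL-33. Each group had 3 samples with 1 array each. The labels give neither the tumour, nor the strain and age of the mice, nor whether replicates are separate animals, and p-values therefore cover only the spread among these arrays, part of which may be technical. F4/80, the protein used to pick out the cells, sits on the surface of mouse macrophages.

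TGF-beta is secreted in an inactive form. The protease furin cuts the precursor, but the cut-off propeptide stays wrapped around the ligand, and latent TGF-beta binding proteins tie this complex to the matrix until integrins, proteases or thrombospondin release the ligand. Free ligand binds the type II receptor TGFBR2, which activates the type I receptor TGFBR1, and this kinase phosphorylates SMAD2 and SMAD3, which enter the nucleus with SMAD4. SMAD7 blocks the receptor and is itself induced by the signal. In tumours, macrophages are known both as a source of TGF-beta and as cells that respond to it.

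The DNA before the transcription start is shown for Tgfb2, Tgfbr1, Ltbp3 and Tgfbi, which differed between the genotypes in the test described further on, and for the ligand gene Tgfb1, which did not pass it. Each sequence runs 5′ to 3′ over the 250 bases upstream of a start in RefSeq (build GRCm38.p6). Capitals mark the SMAD element CAGAC or its reverse complement GTCTG.
Tgfb1, chr7:25686752-25687001, plus strand: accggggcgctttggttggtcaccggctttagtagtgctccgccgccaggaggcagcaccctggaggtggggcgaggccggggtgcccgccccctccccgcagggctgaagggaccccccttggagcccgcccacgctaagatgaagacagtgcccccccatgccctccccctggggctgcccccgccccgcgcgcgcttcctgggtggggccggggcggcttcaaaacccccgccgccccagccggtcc
Tgfb2, chr1:186705990-186706239, minus strand: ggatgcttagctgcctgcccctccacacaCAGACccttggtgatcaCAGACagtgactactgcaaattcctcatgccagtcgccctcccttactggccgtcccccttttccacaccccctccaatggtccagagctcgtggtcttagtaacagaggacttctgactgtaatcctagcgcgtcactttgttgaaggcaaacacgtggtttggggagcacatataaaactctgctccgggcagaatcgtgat
Tgfbr1, chr4:47352972-47353221, plus strand: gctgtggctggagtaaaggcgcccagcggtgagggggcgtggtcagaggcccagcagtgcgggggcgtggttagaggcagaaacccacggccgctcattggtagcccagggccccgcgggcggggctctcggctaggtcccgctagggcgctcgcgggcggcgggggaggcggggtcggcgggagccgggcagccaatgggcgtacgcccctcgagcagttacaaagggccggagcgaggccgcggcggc
Ltbp3, chr19:5740650-5740899, plus strand: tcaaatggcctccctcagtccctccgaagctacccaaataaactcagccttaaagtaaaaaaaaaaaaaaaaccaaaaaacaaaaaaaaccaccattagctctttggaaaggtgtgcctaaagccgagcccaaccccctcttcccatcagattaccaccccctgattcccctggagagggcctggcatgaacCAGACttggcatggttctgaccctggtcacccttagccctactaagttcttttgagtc
Tgfbi, chr13:56609336-56609585, plus strand: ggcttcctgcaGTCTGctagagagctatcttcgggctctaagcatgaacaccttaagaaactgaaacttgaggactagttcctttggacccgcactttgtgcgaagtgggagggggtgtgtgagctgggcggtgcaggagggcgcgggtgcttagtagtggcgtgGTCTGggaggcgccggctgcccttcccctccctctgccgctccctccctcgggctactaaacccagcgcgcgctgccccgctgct
The set of RefSeq windows used here held 10 for 8 of the 10 genes, since Tgfbr1 and Ltbp1 had 2 starts each. That set held no window for Tgfb3 or Smad7. The Tgfbr1 window shown is the one at the lower coordinate. The SMAD element stood in 7 of the 10 windows and in 42.2% of all 32851 windows of this length. Tgfb2 held 2 elements, beginning 221 and 204 bases before the start, Tgfbi held 2, beginning 239 and 85 bases before it, and Ltbp3 held 1, beginning 58 bases before it. Neither Tgfb1 nor the Tgfbr1 window shown held one, and the window at the other Tgfbr1 start (chr4:47385966-47386215) held 1, beginning 203 bases before that start. Tgfb1 and Tgfb2 also differed in base content: G and C made up 75.2% of the Tgfb1 window, with 5 GC boxes (GGGCGG, either strand, overlaps allowed), and 53.6% of the Tgfb2 window, which held 0 GC boxes and 1 TATA box (TATAAA, either strand). A GC box stood in 32.7% and a TATA box in 12.4% of all windows. A match of letters describes the sequence and does not show a protein bound there. The deposited values do not tell which start was used.

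The 3 St2-/- arrays were set against the 3 wild type arrays to ask how expression of these genes in F4/80+ cells differed when the host lacked ST2. A ligand gene and a receptor gene rose most. Tgfb3 was 2.08-fold and Tgfbr1 1.62-fold higher in St2-/-, and Tgfbi was 1.21-fold higher. Ltbp3 was 1.46-fold, Ltbp1 1.21-fold and Tgfb2 1.20-fold lower, and Tgfb1, Tgfbr2, Smad3 and Smad7 did not pass the test. A gene was called higher or lower at a limma adjusted p under 0.05, adjusted by Benjamini-Hochberg over all genes. By this rule 3 of the 10 genes were higher and 3 lower, while 20.8% of all genes were called, 10.7% higher and 10% lower. Bright genes were called more often. With the dimmest 40% of genes left out, 37.7% of the genes kept were called, and 6 of the 9 kept here. The groups did not overlap on the arrays for 8 of the 10 genes, against 36.4% of all genes. Since the genes and the lists below were chosen with earlier results of these data known, such shares describe them and test nothing. Tgfb3 was the only one of the 10 that was called with a change of at least 2-fold, as 1.53% of all genes were. The calls of Tgfb3, Tgfbr1 and Ltbp3 were made under all 16 alternative settings. Without St2-/- replicate 3, the calls numbered 3 (2 higher and 1 lower).

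**Figure D1:**
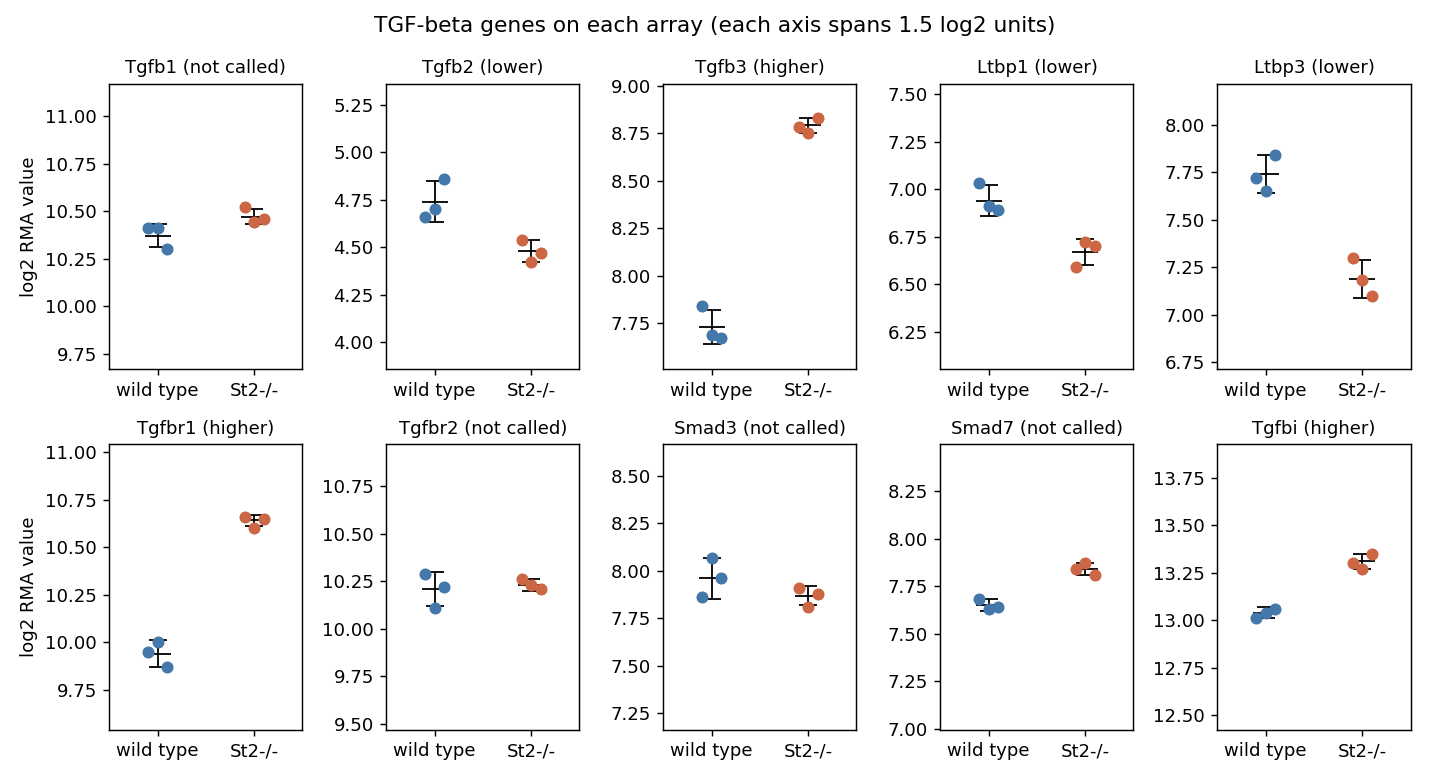
Log2 RMA values (vertical axes, which span the same number of log2 units in each panel) of the 10 genes on each array, with wild type in blue and St2-/- in orange, 3 arrays each; the bar and whiskers are the mean and SD. The St2-/- arrays lie above all wild type arrays for Tgfb3, Tgfbr1 and Tgfbi, and below them for Ltbp3, Ltbp1 and Tgfb2.

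Of the 3 ligand genes, Tgfb3 rose, Tgfb2 fell and Tgfb1 was not called. Levels are RMA values in log2 units as deposited, listed in the order of replicates 1, 2 and 3. Tgfb3 measured 7.84, 7.69 and 7.67 in wild type and 8.78, 8.75 and 8.83 in St2-/-. Every St2-/- array was far above every wild type array. The means were 7.73 ± 0.09 and 8.79 ± 0.04 (SD, n = 3), and the log2 difference, St2-/- minus wild type, was 1.05 ± 0.069 (SE; limma adjusted p = 6.2e-06). Tgfb1, the ligand best known from immune cells, measured 10.41, 10.41 and 10.30 in wild type and 10.52, 10.44 and 10.46 in St2-/-. The St2-/- values were all slightly higher, without overlap, but the difference of 0.10 ± 0.065 (SE) did not pass the test (limma adjusted p = 0.324). Its 95% interval ran from -0.05 to 0.25, and after cyclic loess the difference was 0.00. Tgfb2 measured 4.66, 4.70 and 4.86 in wild type and 4.54, 4.42 and 4.47 in St2-/-. The groups did not overlap, and the difference was -0.26 ± 0.074 (SE; limma adjusted p = 0.0324). Tgfb2 was among the dimmest 40% of genes, and its call was lost in 10 of 15 alternative settings. These included leaving out wild type replicate 2 or 3 (adjusted p = 0.051 and 0.0897) and St2-/- replicate 2 or 3 (0.107 and 0.0938), all from limma. In bulk RNA, a change in the number of cells that make a transcript and a change in the transcript per cell cannot be told apart.

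Both latent binding protein genes were lower in St2-/-. Ltbp3, which holds latent TGF-beta and helps its secretion, measured 7.72, 7.65 and 7.84 in wild type and 7.30, 7.18 and 7.10 in St2-/-. The lowest wild type array lay well above the highest St2-/- array. The means were 7.74 ± 0.10 and 7.19 ± 0.10 (SD, n = 3), a log2 difference of -0.54 ± 0.078 (SE; limma adjusted p = 0.000921). Ltbp1, which anchors the latent complex to matrix fibres, measured 7.03, 6.91 and 6.89 in wild type and 6.59, 6.72 and 6.70 in St2-/-. Here too the groups did not overlap, and the gap between them was narrower. The difference was -0.27 ± 0.07 (SE; limma adjusted p = 0.0213). The Ltbp1 call was lost without wild type replicate 1 (limma adjusted p = 0.0708) and without St2-/- replicate 1 or 3 (0.0817 and 0.0537), and the difference was -0.18 (0.0943) with arrays centred on their median.

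Of the receptor genes, Tgfbr1 rose and Tgfbr2 was not called. Tgfbr1, which encodes the signalling kinase, measured 9.95, 10 and 9.87 in wild type and 10.66, 10.60 and 10.65 in St2-/-. All St2-/- arrays were above all wild type arrays, and replicates lay close together. The means were 9.94 ± 0.07 and 10.64 ± 0.03 (SD, n = 3), and the log2 difference was 0.70 ± 0.064 (SE; limma adjusted p = 5.27e-05). Tgfbr2, which encodes the ligand-binding chain, measured 10.29, 10.11 and 10.22 in wild type and 10.26, 10.23 and 10.21 in St2-/-. The St2-/- values lay inside the wild type range. The difference was 0.03 ± 0.068 (SE; limma adjusted p = 0.83), with a 95% interval from -0.13 to 0.18, and its sign turned after cyclic loess (-0.07) and without wild type replicate 2 (-0.02).

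Neither Smad gene passed the test. Smad3, the signal-carrying factor, measured 7.86, 8.07 and 7.96 in wild type and 7.91, 7.81 and 7.88 in St2-/-, and the groups overlapped. Its difference was -0.10 ± 0.073 (SE; limma adjusted p = 0.403), with a 95% interval from -0.26 to 0.07. Smad7, the inhibitor, measured 7.68, 7.63 and 7.64 in wild type and 7.84, 7.87 and 7.81 in St2-/-. Its St2-/- arrays were all above its wild type arrays. The difference was 0.19 ± 0.06 (SE), just short of the threshold at a limma adjusted p of 0.0514, with a 95% interval from 0.06 to 0.32. It passed in 5 of the 16 alternative settings. Over all 16, adjusted p ranged from 0.00837 to 0.183, both of these from limma.

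Tgfbi, a secreted matrix protein named for its induction by TGF-beta, was bright on every array. It measured 13.01, 13.04 and 13.06 in wild type and 13.30, 13.27 and 13.35 in St2-/-. The replicates of each group lay close together and the groups were apart. The means were 13.04 ± 0.03 and 13.31 ± 0.04 (SD, n = 3), a difference of 0.27 ± 0.061 (SE; limma adjusted p = 0.0117). Without St2-/- replicate 3 the difference was 0.25 and the limma adjusted p was 0.0555.

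**Figure D2:**
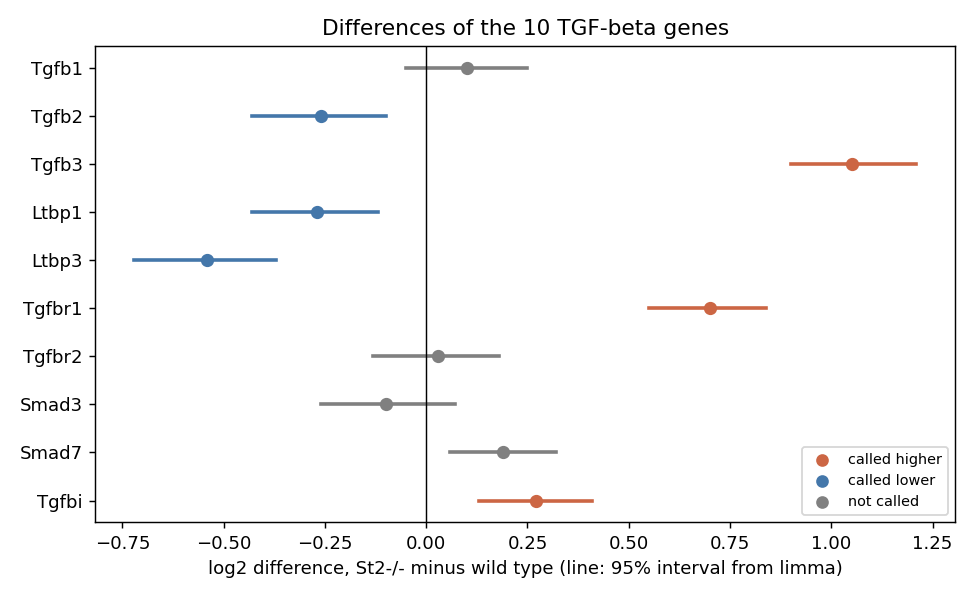
Log2 differences of the 10 genes (horizontal axis, St2-/- minus wild type) with 95% intervals from limma; orange marks genes called higher, blue genes called lower and grey genes not called. Tgfb3 at 1.05 and Tgfbr1 at 0.70 stand farthest to the right and Ltbp3 at -0.54 farthest to the left.

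Genes of the same role were also compared within each array, which asks whether they changed unequally. The log2 ratio of Tgfb3 to Tgfb1 was 0.95 higher in St2-/- (SD 0.08 in wild type and 0.06 in St2-/-, n = 3), a 1.94-fold shift towards Tgfb3. The ratio of Tgfb2 to Tgfb1 differed by -0.36, that of Tgfbr2 to Tgfbr1 by -0.67 and that of Smad7 to Smad3 by 0.29. In each of these 4 ratios the groups did not overlap, and the two-sided exact permutation p was 0.1, the smallest that 3 against 3 arrays allow (0.125 after Benjamini-Hochberg adjustment over the 5 ratios). The ratio of Ltbp3 to Ltbp1 differed by -0.27 with overlapping groups (exact permutation p = 0.2, adjusted 0.2). With 3 arrays a group, none of these ratios could reach 0.05, and a ratio does not show that either gene stayed the same.

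Among genes that hold or release latent TGF-beta, lower calls outnumbered higher ones. The list had 24 measured genes, of which 12 were lower, 3 were higher and 9 were not called. Its median log2 difference was -0.25, against -0.02 over all genes, and 62.5% of it was called, against 20.8% of all genes. When the dimmest 40% of genes were left out, 17 of the 20 kept from it were called, against 37.7% of all genes kept. Thbs1, whose product thrombospondin 1 can free the ligand from its latent complex, averaged 11.12 ± 0.05 in wild type and 10.14 ± 0.01 in St2-/- (SD, n = 3) and fell by 0.98 on the log2 scale (limma adjusted p = 4.05e-06). Mmp9, a protease able to cleave the latent complex, fell by 0.92 on the log2 scale. Fn1 encodes fibronectin, the matrix protein on which latent binding proteins are deposited, and fell by 1.72. Dcn encodes decorin, a proteoglycan that binds TGF-beta, and fell by 3.33. Further genes of this list are named here after their values were seen. Ltbp4, another latent binding protein gene, differed by -0.92 and Lrrc32, which encodes the cell surface anchor GARP for latent TGF-beta, by -0.72. Both were called lower, also under all 16 alternative settings. Nrros, the anchor of latent TGF-beta on myeloid cells, averaged 7.74 ± 0.02 in wild type and 7.82 ± 0.12 in St2-/- (SD, n = 3), and its difference of 0.08 did not pass. Of the integrin chains that can pull the ligand free, Itgav (-0.39), Itgb3 (-0.66) and Itgb8 (-0.42) were called lower. Itgb1 (-0.18), Itgb5 (-0.09) and Itgb6 (-0.12) were not called. The call of Itgb8 was lost when wild type replicate 2, wild type replicate 3 or St2-/- replicate 3 was left out (limma adjusted p = 0.0622, 0.071 and 0.0547). The 3 genes called higher were Furin, the processing protease (0.33 on the log2 scale), Plau (0.30) and Tgm2 (0.31).

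Receptors of the wider TGF-beta superfamily moved in both directions. Of 17 measured genes, 5 were lower, 2 higher and 10 not called (median -0.24, 41.2% called, beside 20.8% of all genes). Leaving out the dimmest 40% of genes kept 14 of this list, of which 7 were called, against 37.7% of all genes kept. Acvrl1, a type I receptor for BMP9 and BMP10 that is best known from endothelium, averaged 8.29 ± 0.08 in wild type and 9.03 ± 0.03 in St2-/- (SD, n = 3) and rose by 0.74 (limma adjusted p = 4.14e-05). The other gene called higher was the co-receptor gene Eng, named after its value was seen, at 0.20 (limma adjusted p = 0.0476). Leaving out any array ended the Eng call, with limma adjusted p from 0.0539 to 0.122. The co-receptor gene Nrp1 fell by 0.64 on the log2 scale, the BMP type II receptor gene Bmpr2 by 0.37, and Tgfbr3, which encodes the co-receptor betaglycan that presents TGF-beta2, by 0.45.

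The other Smad genes and their regulators had a median difference of -0.02, the same as over all genes. Of 26 genes, 5 were higher, 3 lower and 18 not called (30.8% called, beside 20.8% of all genes). When the dimmest 40% of genes were left out, 11 of the 24 kept from this list were called, against 37.7% of all genes kept. Tgif1, a co-repressor of SMAD2 and SMAD3, rose by 0.42 on the log2 scale (limma adjusted p = 0.00127). Usp15, a deubiquitinase that stabilises the type I receptor, rose by 0.32 and Nedd4l, a ubiquitin ligase for activated SMAD2 and SMAD3, by 0.28. Smurf2, a ubiquitin ligase that SMAD7 brings to the receptor, fell by 0.34. Further genes of this list are named after their values were seen. Smad1 (0.25) and Smad6 (0.28) were called higher, and kept the call under 10 and 11 of the 16 alternative settings. Tgif2 (-0.40) and Pmepa1 (-0.26) were called lower. Smad2 and Smad4, the partners of SMAD3, differed by 0.17 and 0.14 and were not called. Skil, a repressor induced by the signal, differed by -0.03, or by 0.06 with arrays centred on their median. The list had 5 calls without St2-/- replicate 3 (3 higher and 2 lower), and without wild type replicate 2 it had 1 lower call. Tested with all rows of the table, the list had 4 calls, and 5 in a plain two-sample comparison.

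Among genes known to be induced or regulated by TGF-beta in other cells, too, lower calls outnumbered higher ones. Of 26 measured response genes, 9 were lower, 1 higher and 16 not called (median -0.19, 38.5% called, beside 20.8% of all genes). When the dimmest 40% of genes were left out, 14 of the 24 kept were called, against 37.7% of all genes kept. Timp1, an inhibitor of matrix proteases, averaged 7.46 ± 0.27 in wild type and 6.18 ± 0.34 in St2-/- (SD, n = 3) and fell by 1.28 (limma adjusted p = 0.000609, and 0.0505 in a plain two-sample comparison). Tsc22d1, a TGF-beta-stimulated transcription regulator, fell by 0.76 on the log2 scale, the collagen gene Col3a1 by 0.61 and Rgcc by 0.45. The 1 gene called higher was the collagen gene Col1a2 (0.35). After cyclic loess the list had 15 calls, 13 lower and 2 higher. Tgfbi, described above, thus rose while most called genes of this list fell.

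Other ligands of the superfamily and their antagonists had 4 genes lower, 2 higher and 19 not called of 25 (median -0.15). The share called was 24%, beside 20.8% of all genes. With the dimmest 40% of genes left out, 8 of the 14 genes kept from this list were called, against 37.7% of all genes kept. The activin subunit genes Inhbb and Inhba fell by 1.40 and 0.62 on the log2 scale, Inhbb from 6.90 ± 0.13 to 5.51 ± 0.07 (SD, n = 3; limma adjusted p = 2.28e-06). Gdf3, a ligand gene known from macrophages, rose by 0.84, and the BMP antagonist gene Grem1 by 0.60. A further list held genes that microglia, the macrophages of the brain, are known to express under TGF-beta. Of 13 measured, 7 were lower, 0 higher and 6 not called (median -0.26, 53.8% called, beside 20.8% of all genes). Leaving out the dimmest 40% of genes kept 10 of them, of which 7 were called, against 37.7% of all genes kept. The 4 lower genes with the smallest p were the phagocytic receptor gene Mertk (-0.72), its ligand gene Gas6 (-1.14), Olfml3 (-0.70) and Fcrls (-0.57). Each of these 4 was called under all 16 alternative settings. The 6 not called are named after their values were seen. They were P2ry12 (-0.05), Tmem119 (0.17), Cx3cr1 (-0.02), Sall1 (-0.04), Slc2a5 (-0.05) and Siglech (0.00). Sall1, Slc2a5 and Siglech were among the dimmest 40% of genes.

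**Figure D3:**
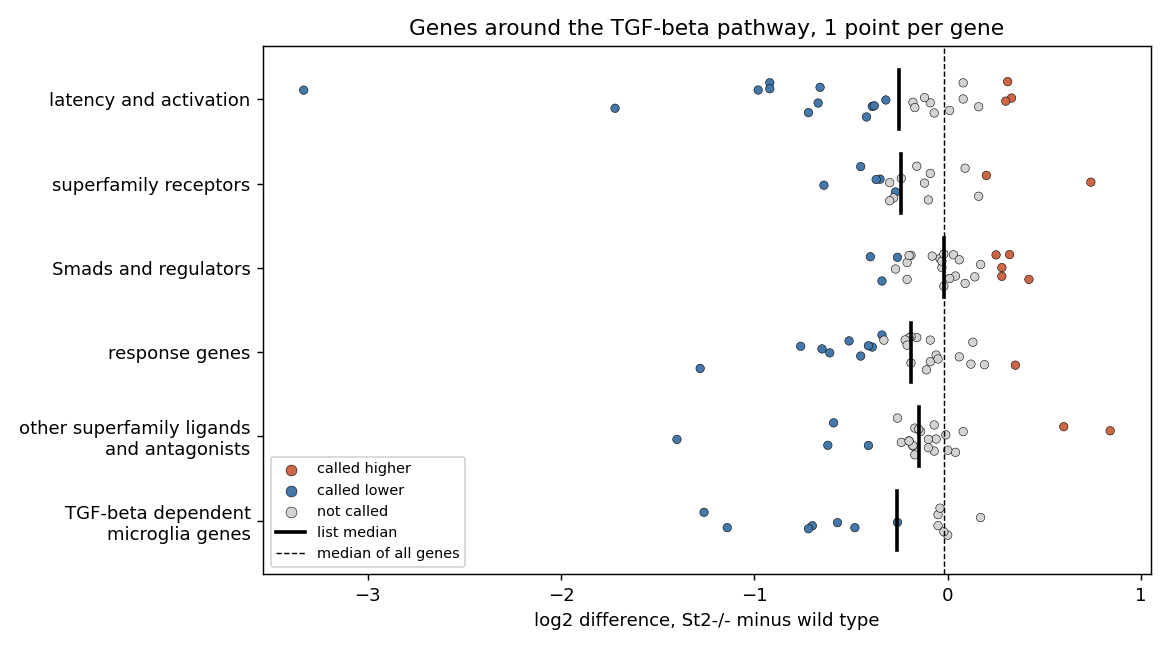
Log2 differences (horizontal axis, St2-/- minus wild type) of the genes of 6 lists around the TGF-beta pathway, 1 point per gene, orange for called higher, blue for called lower and grey for not called; thick bars are list medians and the dashed line is the median of all genes. The medians of 5 lists lie between -0.26 and -0.15, and that of Smads and regulators lies at -0.02.

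Markers of the labelled cell type were bright. Adgre1, the gene of F4/80, averaged 11.32 ± 0.04 in wild type and 11.63 ± 0.04 in St2-/- (SD, n = 3), Csf1r 12.07 ± 0.02 and 12.11 ± 0.04, and Cd68 12.57 ± 0.04 and 12.53 ± 0.02. Of 8 macrophage markers, 2 were higher, 2 lower and 4 not called, while 20.8% of all genes were called. Adgre1 (0.31) and Fcgr1 (0.36) were higher, and Lyz2 (-0.71) and Mertk (-0.72), which is also in the microglia list, were lower. Fcgr1 and Lyz2 were named after their values were seen. Taken out of the log scale and summed on each array, the 8 markers gave 34492 to 35461 in wild type and 31157 to 32753 in St2-/-. Without Lyz2, which differed most in that scale, the sums were 25358 to 25651 and 25790 to 27000, higher in St2-/-. Over all genes, arrays of the same group correlated at 0.996 to 0.998 and arrays of different groups at 0.986 to 0.988.

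Markers of other cells moved with genotype beside the genes above. The counts called here and below stand beside 20.8% called over all genes, or 37.7% with the dimmest 40% left out. For each list the RMA values were taken out of the log scale and summed on each array. A bright gene weighs most in such a sum, so each sum was also taken without the marker that differed most, a step chosen after the data were seen. The fibroblast markers include Dcn of the latency list and Col1a1, Col1a2, Col3a1 and Postn of the response list. They summed to 3855 to 4023 in wild type and 1023 to 1100 in St2-/-, with 6 of 10 lower, 1 higher and 3 not called. Dcn made up most of that difference, and without it the sums were 1316 to 1339 and 765 to 820. Lum, Pdgfra and Pdgfrb, named after their values were seen, differed by -3.56, -1.74 and -1.40, and Col1a1, Col1a2 and Col3a1 by -0.34, 0.35 and -0.61. Platelet markers summed to 877 to 949 and 487 to 526, with 4 of 6 lower and 2 not called: Pf4 and Ppbp differed by -1.03 and -1.44, and Itga2b by -0.23 without a call. Without Pf4 the platelet sums were 313 to 323 and 216 to 222. Neutrophil markers summed to 502 to 544 and 445 to 460, with 3 of 5 lower, 1 higher and 1 not called. S100a8 and S100a9 differed by -1.77 and -1.69, and Ly6g by -0.12 without a call. Csf3r, the gene called higher and named after its value was seen, differed by 0.50, and without it the sums were 249 to 293 and 95 to 108. These sums were lower beside Ltbp1, Ltbp3, Tgfb2 and the latency genes, and the part of these cells in those falls was not tested.

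Other lists had higher sums in St2-/-, beside Tgfb3 and Tgfbr1, and much of each rise lay in 1 gene. T cell markers summed to 282 to 321 in wild type and 583 to 617 in St2-/-, with 5 of 7 higher and 2 not called. Cd4, which differed by 2.19, made up most of that difference, and without it the sums were 226 to 255 and 321 to 331. Cd3e and Cd3g differed by 0.72 and 0.94, and Cd3d, which was not called, averaged 4.11 ± 0.19 in wild type and 4.13 ± 0.06 in St2-/- (SD, n = 3). Dendritic cell markers summed to 260 to 297 and 906 to 966, with 2 of 6 higher, 1 lower and 3 not called and a median difference of -0.05. The 2 higher genes, Xcr1 and Clec9a, differed by 3.37 and 1.88, and without Xcr1 the sums were 201 to 230 and 244 to 262. Flt3 and Zbtb46, also of this list, differed by -0.01 and -0.24 without a call, and Flt3 was among the dimmest 40% of genes. B cell markers had 2 of 3 higher (sums of 151 to 171 and 247 to 268). Cd79b differed by 0.80, and the sums of the other 2 were 26 to 29 and 28 to 32. NK cell markers had 2 of 6 higher (100 to 106 and 118 to 124), and without Prf1, which differed by 0.35, the sums were 60 to 62 and 62 to 67. Cd4, Clec9a, Cd79b and Prf1 were named after their values were seen. Ms4a1 differed by 0.48, and Cd79a (-0.23), Ncr1 (0.09), Klrb1c (-0.11) and Gzma (-0.12) were not called. The part of these cells in the rises of Tgfb3 and Tgfbr1 was not tested.

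Endothelial sums overlapped between the groups, and epithelial sums lay close together without overlap. Endothelial markers had 5 of 8 lower and 2 higher (686 to 776 in wild type and 733 to 744 in St2-/-), with Pecam1 and Kdr at 0.89 and 1.52 and Cdh5 at -1.46. Without Kdr the endothelial sums were 602 to 683 and 458 to 468, apart and lower in St2-/-. Epithelial markers had 1 of 5 lower and 4 not called (702 to 777 and 655 to 695), with Krt8 at -0.35 and Epcam and Krt18 at -0.06 and 0.04, and without Krt8 the sums overlapped (459 to 491 and 452 to 493). No marker is listed at 0 in RMA values, which never reach it. The dimmest 40% of genes held 5 of 6 NK cell markers, 2 of 3 B cell markers, 3 of 8 endothelial markers and 0 of 8 macrophage markers. It also held Cd3d and Cd3g of the 7 T cell markers and Flt3 of the 6 dendritic cell markers.

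**Figure D4:**
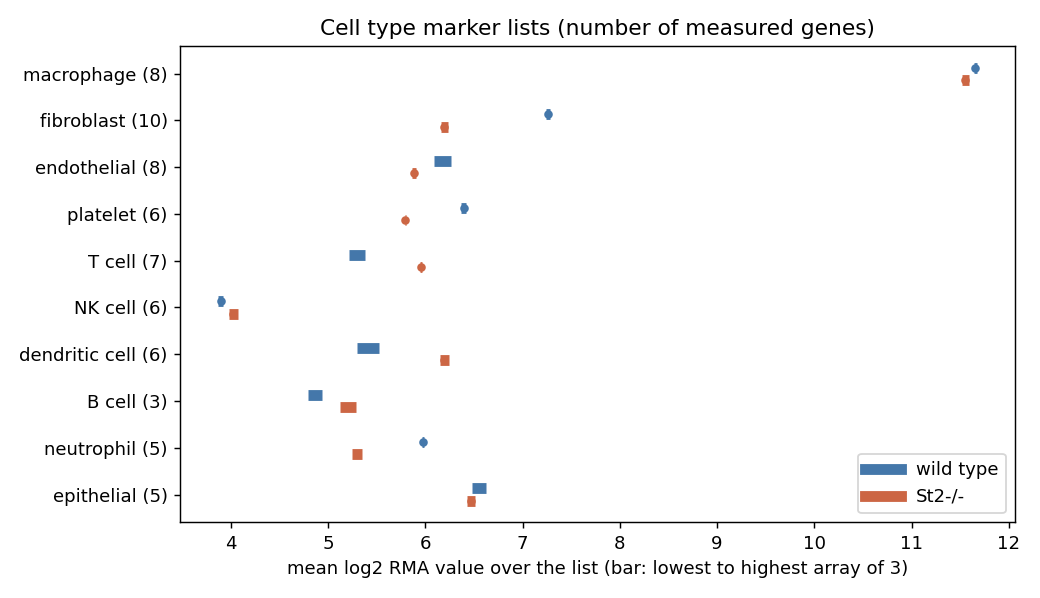
Mean log2 RMA value (horizontal axis) of 10 cell type marker lists, each bar running from the lowest to the highest of 3 arrays, wild type in blue and St2-/- in orange; lists are to be compared between genotypes and not with one another. Fibroblast markers averaged 7.24 to 7.28 in wild type and 6.16 to 6.23 in St2-/-, and T cell markers 5.21 to 5.38 and 5.94 to 5.97.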

How the data were processed

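Gene expression was measured in 6 RNA samples of F4/80+ cells, each on its own Affymetrix 1.0 ST gene array, per the labels' protocols. The authors deposited log2 RMA values (background corrected, quantile normalized and summarised by median polish), per the submitters' processing notes. The base of 2 is taken from RMA's usual output, since the labels do not state it. The version of RMA was not given in the sources used here. Quantile normalization hides a shift shared by most genes.

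Of 35556 probe sets, 21789 had exactly 1 symbol in the platform table. For each symbol the probe set with the highest mean was kept, which gave 19938 genes. The genotypes were compared on all of them with limma (version 3.58.1, R version 4.3.3, lmFit followed by eBayes), two-sided and with no filter or covariate. The fit was tested on simulated data, where it recovered 5.2% of changes of 0.25 log2 units, 60.3% of 0.5 and 94.2% of 1. A gene that was not called may therefore still differ by a small amount. The shares recovered hold for the data as simulated. In the measured data some differences near 0.25 log2 units were called, as for Tgfbi and Ltbp1, and some were not. The members and lists were chosen with earlier results of these data known. The lists held 137 pathway symbols, of which 131 were measured. The named genes are the 10 members, up to 4 called genes with the smallest p of each pathway list, and the leading 3 symbols of each of 10 marker lists; others are said to be chosen after their values were seen. No scan date or batch is given, and precision is limited by the number of arrays. The gene of ST2 was not analysed here. The 16 alternatives changed the scaling, variance prior, array weights, rows or probe sets used, dim genes, pairing or test, or left out 1 array.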

Additional observations from a re-analysis of the deposited data

How the results depend on the processing

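Of the 10 genes, Tgfb3 (differences from 0.97 to 1.14), Tgfbr1 (0.60 to 0.79) and Ltbp3 (-0.60 to -0.45) were called in the same direction under all 16 alternatives, and Tgfbi (0.19 to 0.36) under 15. Ltbp1 was called under 9 of 16 and Tgfb2 under 5 of 15, with the same sign throughout. Tgfb1, Tgfbr2 and Smad3 were called under none (limma adjusted p at least 0.075, 0.249 and 0.146), and the uncalled differences of Tgfbr2 (-0.07 after cyclic loess, and from -0.02 to 0.07 as each array was left out) and Skil (0.06 with arrays centred on their median) changed sign. Centring each array on its median moved the median difference over all genes from -0.02 to 0.07: higher calls over all genes went from 2142 to 3686 and lower calls from 1998 to 1294 (74% higher, against 51.7%), higher calls among the pathway lists went to 20, and lower calls among the 10 genes to 1. Lower calls among the 10 genes were also 1 with all rows of the table and in the plain two-sample comparison, which called 2703 genes in all, 1222 of them lower; the cause was not tested. Leaving out 1 array gave 3 to 5 calls among the 10 genes, and 1 to 2 lower calls. The replicate numbers did not pair the arrays: deviations of same-numbered arrays correlated at -0.05 to 0.01, and 1 of 6 arrays correlated best with its own number. With the replicate number as a block, 3571 genes were called, 4 of the 10 genes were called, and lower calls among them were 1. Of the 24 genes named by rule in the pathway lists, Timp1 alone lost its call, in the plain two-sample comparison.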
